A study of Mus musculus with 4 samples.

Results

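Basophils and mast cells are rare granulocytes that carry the high-affinity IgE receptor, and 10 genes of these cells were examined in RNA from sorted NK cells, out of 35798 genes named in the count table. They were chosen by symbol, and with the difference between the genotypes already known: the proteases Mcpt8, Prss34, Cpa3, Cma1 and Mcpt4, the receptor genes Fcer1a, Ms4a2 and Cd200r3, and Hdc and Il4, which encode a histamine-forming enzyme and a cytokine. Their differences between wild-type and TNFR2 KO libraries are therefore given as a description, with no test. NK cells of 2 kinds of donor, wild-type mice with the CD45.1 allele and TNFR2 KO mice with CD45.2, were transferred together into NSG mice and met MCMV infection in the same hosts. On D3.5 after infection, spleens of 3 hosts were pooled, NK cells were enriched by negative selection, and Ly49H+ cells of either CD45 type were sorted by flow cytometry. This gave 2 libraries per genotype, and the labels tie libraries with the same number to the same pool. Whether the duplicates came from different mice is not stated. The study used mice of 6 to 12 weeks of age. NSG hosts lack T, B and NK cells of their own but keep myeloid cells, and as mice of NOD background they carry the CD45.1 allele themselves. Genotype thus goes with CD45 allele and with the gate of the sort, and their parts cannot be told apart.

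The proteases of the set are stored in granules with histamine and are released when IgE on the receptor is bridged by antigen. The receptor has an alpha chain that binds IgE, a beta chain that amplifies the signal and a gamma chain that NK cells and macrophages also use. Mouse basophils are known for Mcpt8 and Prss34, connective tissue mast cells for the chymases Cma1 and Mcpt4, and both cell types for Cpa3, Hdc and the alpha and beta chains.

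Libraries held 32713256 to 39543650 estimated counts. Levels are in CPM, counts relative to the size of the library after edgeR's TMM scaling, and each log2-fold change sets TNFR2 KO over wild-type. Tnfrsf1b, the targeted gene, measured 264.6 and 268.5 CPM with TNFR2 intact and 55.1 and 58.6 CPM in TNFR2 KO. Klra8, which encodes Ly49H, measured 313.1 and 315.7 CPM in wild-type and 761.8 and 725.5 CPM in TNFR2 KO (log2-fold change 1.24, standard error 0.0281, adjusted p = 2.68e-12 in edgeR's test). With libraries scaled on NK cell markers in place of TMM, the median of all genes moved by -0.89 on the log2 scale and the value of Klra8 was 0.35. Klra8 is one of these markers, so its value there is relative to a mean that includes it. All p-values measure the spread between these duplicates, which may be technical.

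The proteases of basophils were the most abundant members in wild-type libraries and were scarce in TNFR2 KO libraries. Prss34, a tryptase-like protease of basophils, measured 588.4 and 590.5 CPM (wild-type) compared with 8.66 and 7.55 CPM (TNFR2 KO). Mcpt8, a serine protease that marks mouse basophils, measured 305.0 and 300.9 CPM against 5.97 and 6.86 CPM. Cpa3, a carboxypeptidase shared by both cell types, measured 116.3 and 115.3 CPM against 2.69 and 2.75 CPM. For these genes both TNFR2 KO libraries lay far below both wild-type libraries, with log2-fold changes of -6.18, -5.57 and -5.41. In bulk RNA, fewer cells of a type and less RNA per cell cannot be told apart.

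The chymases of mast cells differed from these proteases, Cma1 in direction and Mcpt4 in level and size of change. Cma1, also known as mouse mast cell protease 5, was the sole member that was higher in TNFR2 KO, at 21.9 and 23.0 CPM (wild-type) compared with 71.9 and 73.2 CPM (TNFR2 KO). Its log2-fold change was 1.69, and it remained positive, at 0.80, with scaling on NK cell markers. Mcpt4, the chymase of connective tissue mast cells, was scarce in every library, at 1.84 and 1.71 CPM (wild-type) compared with 0.620 and 0.312 CPM (TNFR2 KO). The TNFR2 KO values of Mcpt4 rest on 24 and 10 counts, and 12.2% of its sequence, in stretches of 31 bases, recurs in other genes, most of it in Cma2. Its log2-fold change of -1.90 became -2.49 without TNFR2 KO replicate 1 and -1.51 without TNFR2 KO replicate 2. For Cma1 the share was 10.6%, all of it in Gm48934, while Mcpt8, Prss34 and Cpa3 shared no such stretch with another gene.

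**Figure D1:**
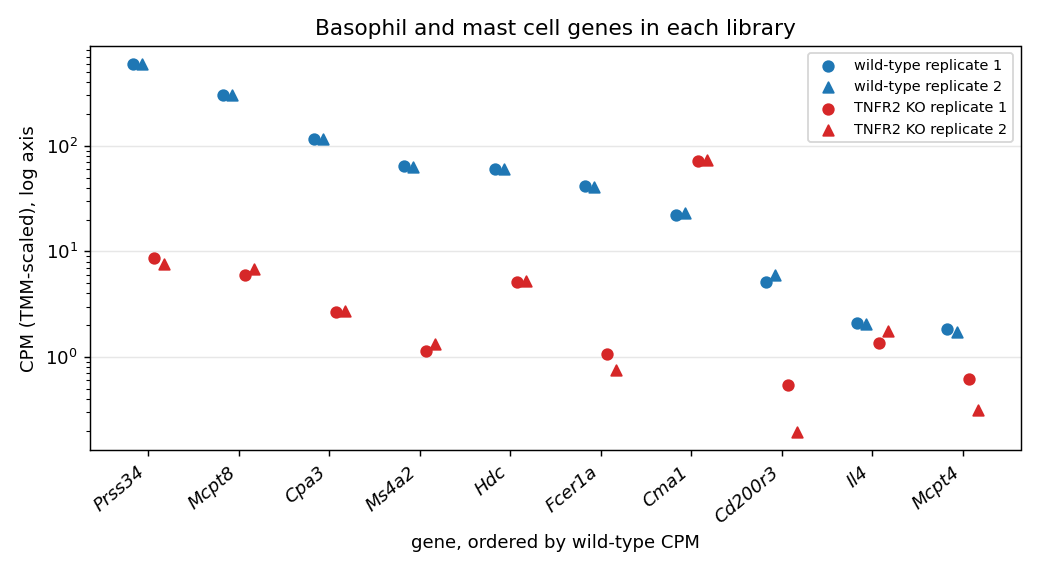
Level of each of the 10 genes in each library, as TMM-scaled CPM on a log axis, with circles for replicate 1, triangles for replicate 2, blue for wild-type and red for TNFR2 KO. The red points of Prss34, Mcpt8 and Cpa3 lie far below the blue ones, those of Il4 lie closest below them, and those of Cma1 lie above them, at 71.9 and 73.2 CPM.

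In genomic terms the proteases fall into separate places of GRCm38. Cma1 (chr14:55941451-55944675), Mcpt4 (chr14:56059629-56062313) and Mcpt8 (chr14:56082166-56085273) lie on the minus strand of one cluster on chromosome 14, Prss34 (chr17:25298394-25300165) on the plus strand of chromosome 17, and Cpa3 (chr3:20215620-20242181) on the minus strand of chromosome 3. Promoter windows of RefSeq (GRCm38.p6), with 250 bases before and 50 after each start site, were searched on both strands for the GATA motif (AGATAA or TGATAA), an E-box of the MITF type (CACGTG or CATGTG) and the STAT motif TTCNNNGAA, which do not overlap in these windows. GATA factors are known regulators of both cell types, and MITF is known as a factor of mast cells. The windows below are shown because they belong to the most abundant members and to the one that went the other way, and matches to any of these motifs stand in capitals.
Prss34, chr17:25298144-25298443, plus strand: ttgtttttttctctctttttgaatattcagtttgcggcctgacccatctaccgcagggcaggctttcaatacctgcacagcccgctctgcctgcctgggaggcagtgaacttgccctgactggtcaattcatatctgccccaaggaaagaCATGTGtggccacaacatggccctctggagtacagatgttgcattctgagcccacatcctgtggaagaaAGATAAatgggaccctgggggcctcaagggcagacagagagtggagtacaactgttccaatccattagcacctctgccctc
Cpa3, chr3:20242132-20242431, minus strand: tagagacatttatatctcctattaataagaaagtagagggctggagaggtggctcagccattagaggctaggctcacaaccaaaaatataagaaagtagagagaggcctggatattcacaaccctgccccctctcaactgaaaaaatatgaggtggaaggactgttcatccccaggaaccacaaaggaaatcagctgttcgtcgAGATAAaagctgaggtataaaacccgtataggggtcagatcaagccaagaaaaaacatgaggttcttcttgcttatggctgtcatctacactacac
Ms4a2, chr19:11623670-11623969, minus strand: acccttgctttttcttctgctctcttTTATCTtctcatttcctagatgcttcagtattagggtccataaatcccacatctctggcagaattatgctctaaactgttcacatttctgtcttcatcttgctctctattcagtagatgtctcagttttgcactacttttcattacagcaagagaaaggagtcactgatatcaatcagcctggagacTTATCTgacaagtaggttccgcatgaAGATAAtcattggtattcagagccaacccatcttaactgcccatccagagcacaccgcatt
Mcpt8, chr14:56085148-56085447, minus strand: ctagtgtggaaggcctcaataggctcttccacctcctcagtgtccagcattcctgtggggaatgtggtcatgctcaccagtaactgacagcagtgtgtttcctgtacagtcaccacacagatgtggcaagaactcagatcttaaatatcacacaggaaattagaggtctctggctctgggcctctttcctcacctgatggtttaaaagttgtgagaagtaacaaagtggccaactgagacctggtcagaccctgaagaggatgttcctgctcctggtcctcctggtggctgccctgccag
Cma1, chr14:55944626-55944925, minus strand: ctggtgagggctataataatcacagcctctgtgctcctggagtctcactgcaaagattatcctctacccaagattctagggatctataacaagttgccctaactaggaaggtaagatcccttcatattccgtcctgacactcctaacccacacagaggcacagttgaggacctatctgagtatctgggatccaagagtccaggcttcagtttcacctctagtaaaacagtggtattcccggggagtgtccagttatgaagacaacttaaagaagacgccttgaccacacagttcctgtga

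A GATA match was present in 7 of the 11 windows of the 10 genes, compared with 18.6% of the 32851 promoter windows of all genes. Prss34 and Cpa3 carried it at positions -31 and -46 from the start site, and Ms4a2 carried 3 matches, at positions -224, -37 and -11. Fcer1a, Cd200r3, Mcpt4 and 1 of the 2 windows of Il4 held a match as well, whereas the letters did not occur in the windows of Mcpt8, Cma1 and Hdc. E-box matches were found in 3 of the 11 windows (of Prss34, Fcer1a and Il4) against 20.4% of all windows, and a STAT match in 1 of the 11, of Il4, against 8.3%. These are matches of letters and were not tested as binding sites.

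Among the receptor genes, the IgE-binding alpha chain and the beta chain were lower to a like degree. Fcer1a (chr1:173221284-173227214, minus strand) measured 41.4 and 41.1 CPM (wild-type) compared with 1.06 and 0.749 CPM (TNFR2 KO), which gives a log2-fold change of -5.48. Ms4a2 (chr19:11615523-11623719, minus strand) measured 64.3 and 62.7 CPM against 1.14 and 1.34 CPM, a log2-fold change of -5.69. The genotypes were widely separated for both chains. Fcer1g, the gamma chain, which is no member of the set because NK cells express it too, went the other way, from 337.4 and 334.0 CPM to 487.2 and 477.8 CPM. Its log2-fold change was 0.52 (SE 0.0248, adjusted p = 3.53e-09 in edgeR's test) and turned to -0.37 with scaling on NK cell markers. Divided by the length of the longest coding transcript, the level in wild-type was 491.6 CPM per kilobase for Fcer1g, 41.3 for Fcer1a and 26.6 for Ms4a2, and in TNFR2 KO it was 706.5, 0.906 and 0.518.

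Cd200r3 (chr16:44943678-44981380, plus strand), which encodes an activating receptor of the CD200 receptor family on basophils and mast cells, was low throughout. It measured 5.15 and 5.96 CPM (wild-type) compared with 0.544 and 0.195 CPM (TNFR2 KO), which gives a log2-fold change of -3.86 that became -4.85 without TNFR2 KO replicate 1 and -3.34 without TNFR2 KO replicate 2. Its TNFR2 KO values rest on estimates of 21.05 and 6.24 counts, and 3.65% of its sequence recurs in other genes. The neighbouring Cd200r2, another member of the family, had 38.0 and 45.2 counts in wild-type against 33.1 and 16.9 in TNFR2 KO, and its log2-fold change was -0.67 (adjusted p = 0.158 by edgeR), or -1.56 with scaling on NK cell markers, which passed both thresholds.

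Hdc (chr2:126593667-126619299, minus strand), the enzyme that makes histamine from histidine, was also lower in TNFR2 KO, but kept a larger share of its wild-type level than Prss34, Mcpt8 and Cpa3. It measured 59.99 and 60.2 CPM (wild-type) compared with 5.14 and 5.21 CPM (TNFR2 KO), which gives a log2-fold change of -3.54. Il4 (chr11:53602982-53618669, minus strand), a type 2 cytokine that T cells make as well, differed least. It measured 2.08 and 2.03 CPM (wild-type) compared with 1.37 and 1.78 CPM (TNFR2 KO), or 79 and 75 against 53 and 57 counts. The genotypes did not overlap for Il4, but the gap between them was smaller than that between the TNFR2 KO duplicates, and the log2-fold change of -0.39 ran from -0.58 to -0.20 with each library left out.

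With the counts of both libraries of a genotype added together, the level left in TNFR2 KO divided the set into tiers. It was between 1% and 3% of the wild-type level for 5 genes: 1.38% for Prss34 (exact 95% interval 1.27 to 1.502), 1.94% for Ms4a2 (1.55 to 2.39), 2.10% for Mcpt8 (1.91 to 2.31), 2.23% for Fcer1a (1.71 to 2.85) and 2.34% for Cpa3 (2.02 to 2.70). The intervals cover counting error only. Those of Ms4a2, Mcpt8, Fcer1a and Cpa3 overlap each other, while the interval of Prss34 lies below them all. Cd200r3 and Hdc kept more, with 6.88% (4.48 to 10.2) and 8.61% (7.72 to 9.58). Mcpt4 followed with 27.0% (18.0 to 39.7) and Il4 with 75.5% (58.6 to 97.1), and Cma1 stood at 322.9% (305.5 to 341.4).

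**Figure D2:**
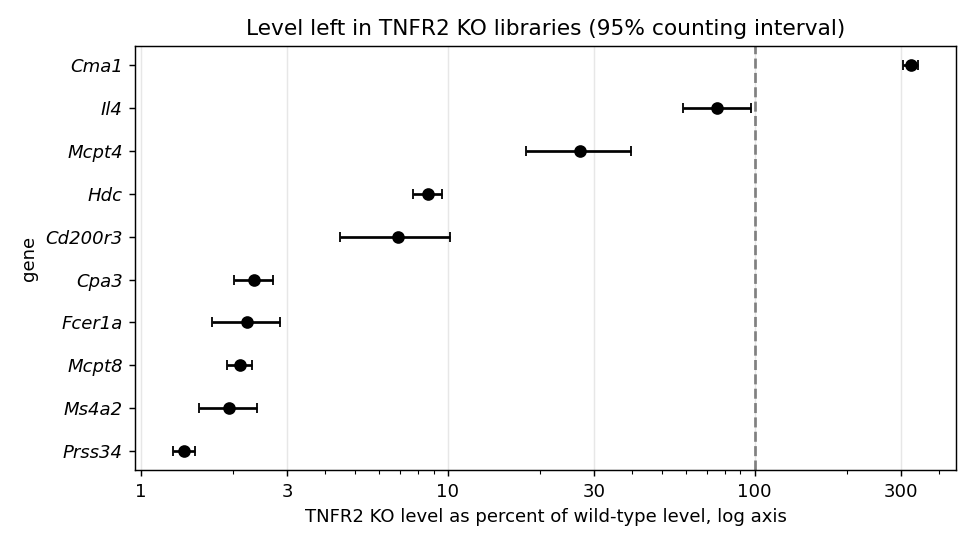
TNFR2 KO level of each gene as a percentage of its wild-type level, on a log axis, from the summed counts of both libraries per genotype, with exact 95% counting intervals as bars and a dashed line at 100%. Prss34, Ms4a2, Mcpt8, Fcer1a and Cpa3 lie between 1.38% and 2.34%, and Cma1 lies to the right of the line at 322.9%.

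Ranked by log2-fold change among the 13822 genes tested, these 5 genes took places 27 (Prss34), 31 (Ms4a2), 34 (Mcpt8), 35 (Fcer1a) and 36 (Cpa3) from the lowest value. Cd200r3 was at place 127, Hdc at 180, Mcpt4 at 1090 and Il4 at 2975, whereas Cma1 was at place 63 from the highest value. All 10 members passed edgeR's filter on low counts. The study's thresholds ask for an adjusted p under 0.05 together with a log2-fold change beyond 1 in size. For description only, 8 members lay past them on the lower side and 1 on the higher side, where 11.8% and 1.56% of all genes tested were lower and higher. As the members were chosen on this contrast, nothing can be read from their number. Of the 1842 genes past these thresholds 88.3% were lower, and of the 4985 with scaling on NK cell markers 99.5% were. The median log2-fold change of the 10 members was -4.64, compared with -0.0028 for all genes tested.

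The make-up of the set differed between the genotypes as well. Together the 10 genes held 0.123% of all counts of either wild-type library, compared with 0.00970% and 0.00979% of TNFR2 KO replicates 1 and 2. Prss34 and Mcpt8 made up 48.8% and 25.3% of the summed counts in wild-type replicate 1 and 49.1% and 25.0% in replicate 2. In TNFR2 KO replicates 1 and 2, Prss34 held 8.74% and 7.55% and Mcpt8 held 6.02% and 6.87%. Cma1 held 1.81% and 1.92% in the wild-type libraries but 72.6% and 73.2% in the TNFR2 KO libraries, which was most of the total. Without Cma1 the summed level was 1184 and 1180 CPM (wild-type) compared with 27.2 and 26.7 CPM (TNFR2 KO).

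**Figure D3:**
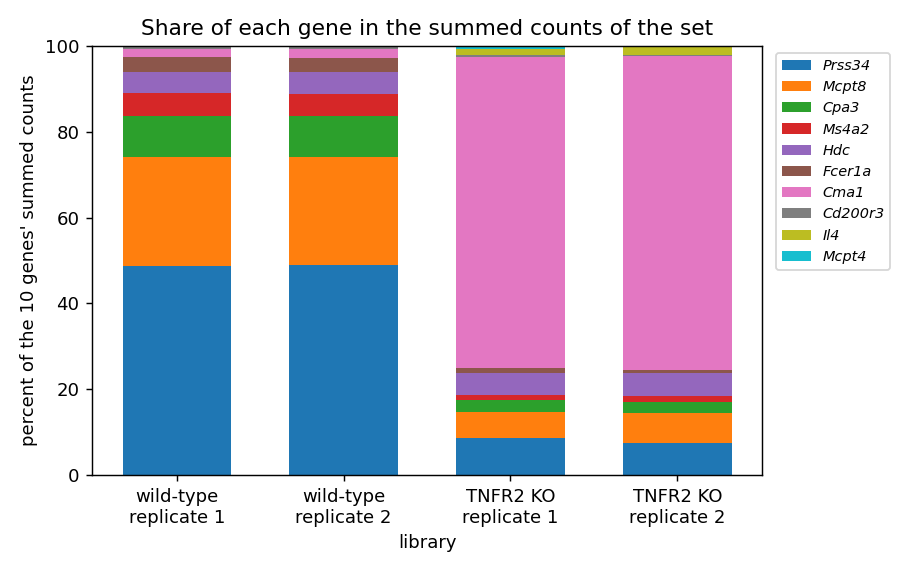
Stacked share of each gene in the summed counts of the 10 genes, in percent, for each library. Prss34 and Mcpt8 fill most of the wild-type bars, and Cma1 fills 72.6% and 73.2% of the TNFR2 KO bars.

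Duplicates lay close together. Wild-type duplicates of the 10 genes differed by at most 1.16-fold, for Cd200r3, and the TNFR2 KO duplicates by 1.013-fold for Hdc to 2.79-fold for Cd200r3. Of the 20 pairs of duplicates, 19 had a ratio whose counting interval included 1, the exception being Cd200r3 in TNFR2 KO. Ordered per length, the wild-type levels were 483.2 CPM per kilobase for Prss34, 362.3 for Mcpt8 and 79.9 for Cpa3, followed by Fcer1a, Ms4a2 and Hdc, the last pair at 26.6 and 25.1. Cma1 came next at 20.6, and Il4, Mcpt4 and Cd200r3 closed the order at 3.40, 1.60 and 1.43. In TNFR2 KO the order began with Cma1 at 66.6 CPM per kilobase, followed by Mcpt8 at 7.68 and Prss34 at 6.64. Each gene was divided by the length of 1 transcript, so places that lie close together, such as those of Ms4a2 and Hdc or of Mcpt4 and Cd200r3, are not resolved.

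The cluster on chromosome 14 holds mast cell proteases, cathepsin G and granzymes side by side, and its genes differed in opposite directions. Ctsg, the neighbour of Mcpt8 and a protease of neutrophils and mast cells, fell from 88.9 ± 3.29 to 1.28 ± 0.0494 CPM (SD, n = 2 each), and its log2-fold change was -6.11 with an SE of 0.0827 (adjusted p = 3.49e-14 in edgeR's test). Mcpt1 and Mcpt2, proteases of mucosal mast cells that lie between Cma1 and Mcpt4, were both under 2 CPM and fell by 2.09 and 1.60 on the log2 scale (adjusted p = 0.000519 and 0.0355). Mcpt2 did not pass without wild-type replicate 1 (-1.54), wild-type replicate 2 (-1.62) or TNFR2 KO replicate 1 (-0.96), nor in DESeq2 (-1.59). At the far end, 177.0 kb from the start site of Mcpt8, under TMM scaling but not NK marker scaling Gzmb was higher in TNFR2 KO, at 6537 ± 69.4 CPM, than in wild-type, at 3875 ± 24.5 CPM (SD, n = 2 per genotype). The log2-fold change of this granzyme of NK cells was 0.75 (adjusted p = 3.07e-12), which turned to -0.14 with scaling on NK cell markers. Gzmb is one of these markers, so the latter value is relative to a mean that includes it. Gzmc, another granzyme, measured 10.7 CPM in each wild-type library and 10.3 and 9.52 CPM in TNFR2 KO (log2-fold change -0.11, adjusted p = 0.417). Mcpt9, Gzmg and Gzmn were listed at 0 in every library, and Cma2, Gzmd, Gzme and Gzmf had at most 10 counts in any library.

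**Figure D4:**
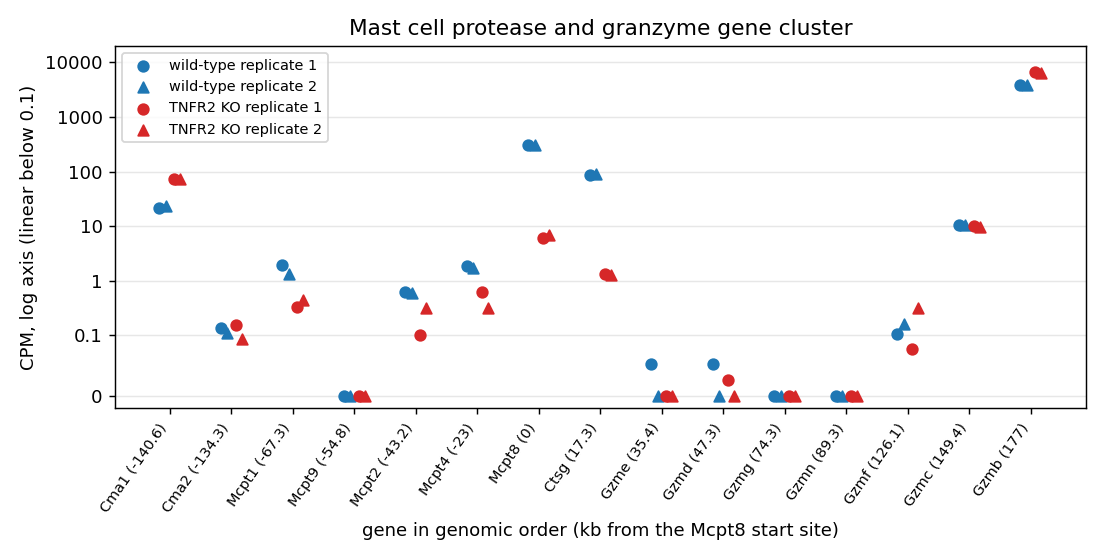
CPM of the 15 protein-coding genes of the cluster in each library, in genomic order with the distance of each start site from that of Mcpt8 in kb, on an axis that is logarithmic above 0.1 CPM and linear below it. TNFR2 KO points (red) lie below wild-type points (blue) from Mcpt1 to Ctsg where the gene was detected, and above them for Cma1 and Gzmb. For Gzmb the log2-fold change of 0.75 under TMM scaling turned to -0.14 with scaling on NK cell markers, of which Gzmb is one.

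Other members also have neighbours of their own family. Ms4a3 and Ms4a6d, tetraspan genes of myeloid cells on either side of Ms4a2, fell by 5.81 and 2.79 on the log2 scale (adjusted p = 1.22e-11 and 1.19e-12 in edgeR's test). Prss28, the protease gene next to Prss34, had 37 and 32 counts in wild-type against 3 and 0 in TNFR2 KO. Il13, the neighbour of Il4 and a cytokine of the same type 2 response, fell from 15.7 ± 0.617 to 6.32 ± 0.860 CPM (SD, n = 2 each), which is -1.32 on the log2 scale (adjusted p = 1.12e-06). Among neighbours outside these families, Ccdc80 beside Cd200r3 had 25 and 9 counts in wild-type against 0 and 2 in TNFR2 KO, too few to be tested. Kif3a beside Il4 differed by -0.52 on the log2 scale (adjusted p = 0.00933), or by -1.41 with scaling on NK cell markers. Gyg beside Cpa3 differed by 0.31 on the log2 scale (adjusted p = 1.30e-05), which turned to -0.58 with scaling on NK cell markers. Gabpb1 beside Hdc and Sdr39u1 beside Cma1 had log2-fold changes of 0.01 and -0.02 (adjusted p = 0.857 and 0.832), which changed sign under other settings. Slc27a2 beside Hdc had at most 5 counts in any library and Cpb1 beside Cpa3 was listed at 0, and both neighbours of Fcer1a, Olfr1404 and Olfr418, were not analysed here.

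Further genes of basophils and mast cells were taken from lists by function. These lists, and those of markers of other cell types, were chosen with earlier results of these data known. Their counts are therefore given for description only. Among the lists by function, that of mediators held the largest share of genes lower past both thresholds. In it 7 of the 8 genes that could be tested were lower (87.5%, where 11.8% of all genes tested were). Alox5 and Alox5ap, which start leukotriene synthesis, fell by 4.91 and 3.14 on the log2 scale, and Slc18a2, the transporter that loads histamine and serotonin into granules, fell by 4.56 (adjusted p = 2.33e-12, 1.53e-12 and 2.07e-09 in edgeR's test). The gene of this list that stayed short of the fold change threshold was Ndst2, an enzyme of heparin synthesis, at -0.64, which became -1.53 with scaling on NK cell markers. The median log2-fold change of the list was -3.10. Of the 7 tested genes on the list of other granule proteins, 5 were lower past both thresholds, Ctsg among them (71.4%, beside 11.8% of all genes tested). Tpsb2, a tryptase, had 47 and 60 counts in wild-type and 2 in each TNFR2 KO library, and Tpsg1 had 23 and 30 counts against 0 in both, which makes it at least 16.7-fold lower against a floor of 3 counts over both libraries. Srgn, the granule proteoglycan serglycin, which NK cells also store, had a log2-fold change of -0.13 with an adjusted p = 0.00288, and one of -1.02 with scaling on NK cell markers.

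Transcription factors of these lineages were lower past both thresholds in 6 of 10 cases (60.0%, beside 11.8% of all genes tested). Gata2, needed for both basophils and mast cells, fell from 68.8 ± 0.492 to 2.72 ± 0.498 CPM (SD, n = 2 each), and its log2-fold change was -4.64 with an SE of 0.0836 (adjusted p = 4.07e-13 in edgeR's test). Cebpa, a factor of granulocyte precursors, fell by 4.11 and Mitf, a factor of mast cells, by 3.64 on the log2 scale (adjusted p = 2.68e-12 and 4.56e-08). The most abundant factors of the list, Zfpm1, Stat5b and Runx1, are used by many blood cells and had log2-fold changes of 0.23, -0.14 and 0.03, of which those of Zfpm1 and Runx1 turned to -0.66 and -0.87 with scaling on NK cell markers. The value of Runx1 was also negative with library size alone, at -0.034, and with a filter at 10 CPM, at -0.010.

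Surface receptors divided, with 5 of 15 tested genes lower past both thresholds (33.3%, beside 11.8% of all genes tested) and a median log2-fold change of -0.67. Grm6, Cd63 and Csf2rb2 fell most, with log2-fold changes of -4.52, -4.33 and -4.05 (adjusted p = 4.56e-08, 6.01e-12 and 3.02e-14 in edgeR's test). Csf2rb2 is a near copy of Csf2rb, so that counts may have been split between them. Csf2rb, the shared signalling chain of the IL-3, IL-5 and GM-CSF receptors, fell from 234.5 ± 0.0247 to 17.6 ± 0.0519 CPM (SD, n = 2 each), whereas Il3ra, the IL-3 binding chain and a marker of basophils, differed by -0.18 on the log2 scale (adjusted p = 0.0160), or by -1.07 with scaling on NK cell markers. Kit, the stem cell factor receptor that defines mast cells, fell from 11.3 ± 0.0563 to 2.51 ± 0.0732 CPM (SD, n = 2 each; log2-fold change -2.17, adjusted p = 4.05e-08). Other markers of mast cells were uneven. Tpsab1 had 0 and 5 counts in wild-type and 0 in TNFR2 KO, Mrgprb2 had 1 count in all, and Mrgprb1 had 0, 1, 1 and 3 counts, whereas Tpsb2, Mcpt1 and Mitf had 47 to 211 counts in each wild-type library and Cma1 had more. Itga2, an integrin of basophils that also marks NK cells, had a log2 value of 0.53 (adjusted p = 1.16e-08). This value turned to -0.36 with scaling on NK cell markers, of which Itga2 is one.

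Signalling genes below the IgE receptor, most of which NK cells use as well, were lower past both thresholds in 4 of 20 cases (beside 11.8% of all genes tested), with a median log2-fold change of -0.06. Btk and Rasgrp4 fell by 2.79 and 1.55 and Prkcd by 1.08 on the log2 scale (adjusted p = 1.02e-09, 3.14e-07 and 7.05e-11 in edgeR's test), and Lyn, the kinase that starts the signal, was the fourth. At an adjusted p under 0.05, whatever the fold change, 9 genes of this list were lower and 8 higher under TMM scaling. Among type 2 cytokines and their factors, 3 of 9 tested genes were lower past both thresholds (33.3%, beside 11.8% of all genes tested). They were Il6, Il13ra1 and Il13, with log2-fold changes of -3.20, -2.56 and -1.32. Gata3, the factor of type 2 lymphocytes, had a log2-fold change of -0.01 that changed sign when libraries were left out.

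**Figure D5:**
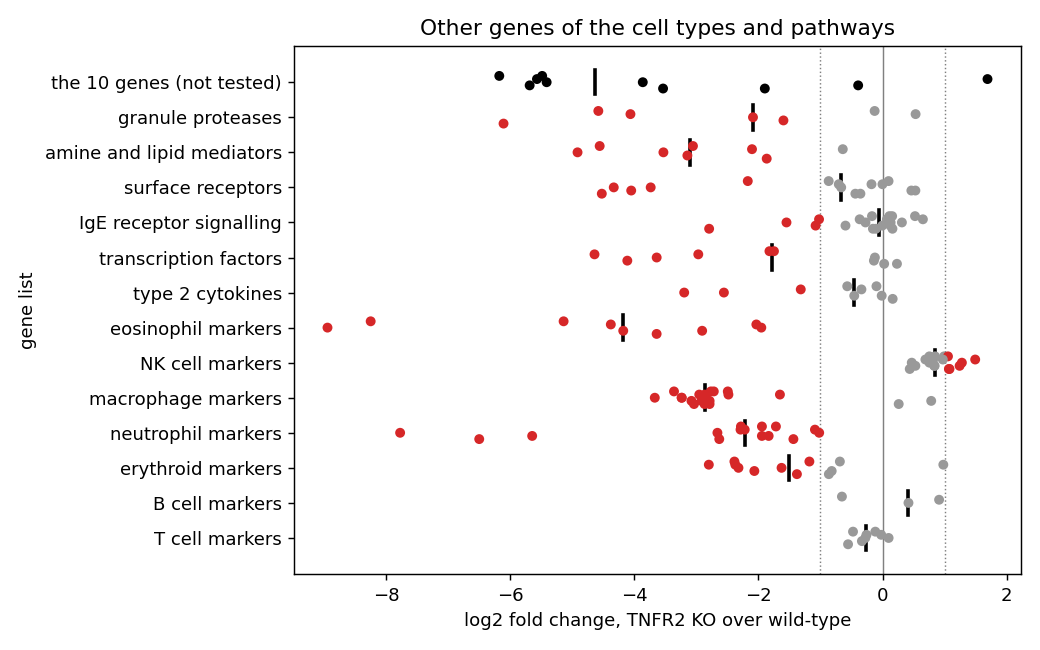
Log2-fold change (TNFR2 KO against wild-type) for the 10 genes (black, not tested) and for each tested gene of 13 lists, red where both thresholds were met (adjusted p under 0.05, log2-fold change beyond 1 in size) and grey elsewhere, with medians as black bars and dotted lines at -1 and 1. Genes at 0 in both TNFR2 KO libraries are drawn at their lower bound. The mediator and eosinophil lists lie furthest to the left, with medians of -3.10 and -4.18, and under TMM scaling NK cell markers lie to the right of 0.

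Among markers of other cell types, those of eosinophils, neutrophils, macrophages and erythroid cells were mostly lower, like the set. Under TMM scaling NK cell markers were higher, and no T or B cell marker passed both thresholds. All 9 tested eosinophil markers were lower past both thresholds (beside 11.8% of all genes tested), with a summed level of 59.2 to 59.6 CPM in wild-type and 5.04 to 5.33 CPM in TNFR2 KO. Epx and Prg2, granule proteins of eosinophils, had 1170 and 720 counts over both wild-type libraries and 2 each over both TNFR2 KO libraries, or 0.181% (exact 95% interval 0.0219 to 0.655) and 0.294% (0.0355 to 1.07) of the wild-type level. All 15 tested neutrophil or granulocyte precursor markers were lower past both thresholds (beside 11.8%), with sums of 959.0 to 971.1 CPM in wild-type and 105.9 to 110.2 CPM in TNFR2 KO. So were, beside the same 11.8%, 18 of 20 macrophage or monocyte markers (sums of 2647.5 to 2679 against 1269.95 to 1289.9 CPM) and 8 of 12 erythroid markers (470.3 to 475.5 against 406.9 to 413.4 CPM). These sums include abundant markers that were higher in TNFR2 KO under TMM scaling, which hide part of the fall of the rest. In the macrophage list mean levels rose from 393.6 to 677.9 CPM for Ccr2 and from 261.6 to 313.4 CPM for Ly6c2. In the erythroid list Car2 rose from 170.7 to 336.6 CPM. Of 19 NK cell markers 6 were higher past both thresholds under TMM scaling, beside 1.56% of all genes tested. The rest were higher at an adjusted p under 0.05. Under this scaling NK cell markers summed to 18519.7 to 18565 CPM in wild-type and 34276.5 to 34719.8 CPM in TNFR2 KO. T cell markers summed to 950.5 to 958.2 CPM in wild-type and 795.9 to 804.5 CPM in TNFR2 KO, and B cell markers to 15.2 to 15.9 and 25.0 to 25.9 CPM. In none of these lists was a marker at 0 in every library. Their part in the differences of the 10 genes was not tested.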

How the data were processed

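Poly-A enriched, stranded libraries were read as paired ends. The transcript annotation is not given in sources used here. Per the submitters' processing notes, Trimmomatic (version 1.4) and kallisto (version 0.46.1) were used. The authors deposited 1 table of estimated counts per gene and library, not normalized. Here a blank row holding 0.0559% to 0.0728% of each library was removed, and counts were rounded to whole numbers for the count models. No column of values lacked a sample.

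Genes passing edgeR's filterByExpr (edgeR 4.0.16, R 4.3.3) were TMM scaled and tested with the quasi-likelihood test and Benjamini-Hochberg adjustment, across all 13822 genes tested. A gene had to pass an adjusted p under 0.05 with a log2-fold change beyond 1 in size. The common biological coefficient of variation was 3.33%. Libraries with the same number share a pool of spleens, as the sample descriptions say, and their deviations from the group means correlated at 0.0572 across genes. The replicate number was therefore tried as a block. Other alternatives were other scalings, DESeq2 1.42.0, other filters and leaving out each library. The model was also run on simulated counts with equal numbers of genes raised and lowered. Since most genes past the thresholds here were lower, that run cannot vouch for the scaling or the p-values. Exact intervals of ratios came from SciPy 1.17.1 and, like floors, cover counting error only. Gene positions, lengths and shared stretches came from GENCODE M21 on GRCm38, which may differ from the annotation the authors used.

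The 10 genes and all lists were chosen with earlier results of these data known. Genes named beside the members were the 3 most abundant of each list, the 3 with the largest change in each direction among those past the thresholds, a fixed few (Kit, Mrgprb1, Mrgprb2, Tpsab1, Tpsb2, Gata2, Il3ra, Fcer1g, Klra8 and Tnfrsf1b), the nearest protein-coding neighbours (one result is not reported here) and the granzymes of the cluster. Lyn, Mcpt1 and Mcpt9 were named after their values were seen.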

Additional observations from a re-analysis of the deposited data

How the results depend on the processing

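All 117 values of the 10 genes over 12 alternatives kept their direction, as did the genotype order of their median, which was -5.53 with scaling on NK cell markers and, over those that stayed, -5.52 with a filter at 10 CPM. That filter tested 8763 genes and called 478 of them, and its lists held fewer genes: calls numbered 1 for granule proteins, 3 each for mediators, surface receptors, transcription factors and erythroid markers, 1 for type 2 cytokines and 0 for eosinophil markers, none of which was left to test. Scaling on NK cell markers called 4985 genes, 11 of them surface receptors, 9 signalling genes, 6 type 2 genes, 6 T cell markers, 1 B cell marker and 0 of the NK cell markers themselves, and by its construction it lowered all log2-fold changes. Values of Klra8, Gzmb, Il2rb and Itga2, which are among these markers, are relative to their own group under this scaling. Under it the sign turned for Fcer1g (-0.37), Prss30 (-0.36), Itga2 (-0.36), Fyn (-0.58), Zfpm1 (-0.66), Runx1 (-0.87), Stat6 (-0.73), Gzmb (-0.14), Il2rb (-0.45), Ccr2 (-0.11), Ly6c2 (-0.63), Blk (-0.46), Cd3g (-0.79), Gyg (-0.58) and Gabpb1 (-0.88). Library size alone turned Runx1 (-0.034) and Gabpb1 (-0.049), and the filter at 10 CPM turned Runx1 (-0.010) and Gabpb1 (-0.025). With each library left out, Gata3 ran from -0.035 to 0.025 (0.025 without wild-type replicate 2 and 0.012 without TNFR2 KO replicate 2), Sdr39u1 from -0.042 to 0.025 (0.025 without wild-type replicate 2 and 0.013 without TNFR2 KO replicate 1) and Gabpb1 from -0.0017 (without TNFR2 KO replicate 2) to 0.041. Of 936 values of 80 other named genes, 890 kept direction and side of the thresholds, and 14 came to pass them, 13 of these with scaling on NK cell markers. With the replicate number as a block, 1830 genes (13.2%) passed, compared with 1842 (13.3%) without it, and no other reported call changed. DESeq2 called 1603 genes (11.6%). Few counts limit the TNFR2 KO values of Mcpt4, Il4 and Cd200r3, and 2 libraries per genotype limit every p-value.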
